A study of Mus musculus with 8 samples.

Results

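The 10 genes described here (Cabs1, Tppp2, Ppef1, Galntl5, Prss58, Cstl1, Dnajb8, Fabp12, Tex13a and Lelp1) were chosen because their ribosome footprints nearly vanished in Miwi-null mouse testes by more than their RNA did. They are 10 of the 21949 genes in the deposited tables, and 20 of the 99671 transcripts. Each gene is represented by the transcript with the highest mean fragment count over all 8 libraries. The groups were testes of Miwi-null mice and testes of wild-type (WT) mice, both C57BL/6 and both taken at postnatal day 24. Each genotype gave 2 libraries of ribosome-protected fragments (RPF, the mRNA pieces that ribosomes shield from nuclease) and 2 libraries of total RNA, made from clarified lysates. The allele behind the null genotype is not given in the sources used here, and no animals or litters are named, so the errors cover the spread between these libraries, which may be partly technical.

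Miwi, encoded by Piwil1, is an Argonaute-family protein of the PIWI clade that binds piRNAs in pachytene spermatocytes and round spermatids, and male mice without it are sterile with germ cells that stop as round spermatids. Spermatids transcribe much of what the sperm will need and then shut transcription down as their chromatin condenses. Many of their mRNAs are therefore stored and translated later, so RNA and footprints of a spermatid gene need not appear together. Translational efficiency (TE) is the footprint level of a gene relative to its RNA level.

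Counting 1 transcript a gene, the RPF libraries held 11662659 and 28334618 fragments in Miwi-null testes and 28054417 and 17735638 in WT testes, and the RNA libraries held 11130954 to 15592804. A single fragment was worth 0.0353 to 0.0898 CPM (the count scaled to a common library size; the values of genes below also carry TMM scaling, edgeR's trimmed-mean factor for library makeup). Piwil1 itself had 46 and 26 RNA fragments in Miwi-null testes, against 8215 and 7165 in WT testes. The summed RNA of 8 elongating spermatid markers was 1641 and 1647 CPM in Miwi-null testes, against 14706 and 14519 CPM in WT testes, and their summed footprints were 65.9 and 65.7 CPM in Miwi-null testes, against 6152 and 6071 CPM in WT testes. All 8 of those markers were called lower in both assays (edgeR adjusted p under 0.05). Over all genes tested, 20.8% were called lower in RNA and 13.3% in footprints. The summed RNA of 8 round spermatid markers was 886 and 897 CPM in Miwi-null testes, against 1502 and 1457 CPM in WT testes, and their footprints summed to 1083 and 1095 CPM in Miwi-null testes, against 1940 and 1906 CPM in WT testes. Of the 8 round spermatid markers, 2 were called lower in RNA, against 20.8% of all genes, and 7 in footprints, against 13.3%. Spermatocyte markers summed to 670 and 657 CPM of RNA in Miwi-null testes, against 545 and 589 CPM in WT testes, and to 2377 and 2355 CPM of footprints in Miwi-null testes, against 2485 and 2621 CPM in WT testes. Of these 8 markers, 4 were called higher and 0 lower in RNA, where 16.5% and 20.8% of all genes were. Spermatogonial markers summed to 127 and 127 CPM of RNA in Miwi-null testes, against 175 and 173 CPM in WT testes. Their footprints summed to 460 and 394 CPM in Miwi-null testes, against 457 and 550 CPM in WT testes. Leydig cell markers summed to 2323 and 2325 CPM of RNA in Miwi-null testes, against 1277 and 1259 CPM in WT testes. Their footprints summed to 8012 and 8908 CPM in Miwi-null testes, against 2564 and 2484 CPM in WT testes. Of the 8 Leydig markers, 3 were called higher and 1 lower in RNA, where 16.5% and 20.8% of all genes were. In footprints 5 were called higher and 0 lower, against 12% and 13.3%. Peritubular myoid markers summed to 131 and 128 CPM of RNA in Miwi-null testes, against 397 and 385 CPM in WT testes. Their footprints summed to 290 and 293 CPM in Miwi-null testes, against 412 and 378 CPM in WT testes. Of the 6 myoid markers, 5 were called lower in RNA and 2 in footprints, against 20.8% and 13.3% of all genes. Sertoli cell markers summed to 1082 and 1088 CPM of RNA in Miwi-null testes, against 1487 and 1423 CPM in WT testes. Their footprints summed to 3580 and 3535 CPM in Miwi-null testes, against 3336 and 3492 CPM in WT testes. The genes are counted here as spermatid genes from background knowledge, since whole-tissue libraries assign no transcript to a cell type. In such libraries fewer cells of a type and less RNA per cell cannot be told apart, and the part of these marker shifts in the values below was not tested.

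RefSeq promoter sequences (build GRCm38.p6, 250 bases before to 50 after the transcription start) were at hand for 8 of the 10 genes, all but Tex13a and Fabp12. The windows of Ppef1 (chrX:160719923-160720222, minus strand) and Tppp2 (chr14:51918511-51918810, plus strand) lay inside the gene coordinates given below. Their start sites are therefore not the outer ends of those coordinates. CREM, the transcription activator of round spermatids, acts through the cAMP response element TGACGTCA, and that sequence was searched on both strands together with its core TGACG. The full element stood in 0 of the 8 promoters, against 1.79% of 32851 mouse promoters, and the core stood in 0 of 8, against 20.8% of all. A looser form with the same outer letters, TGANNTCA, was chosen after the promoters had been read; it contains the full element and is its own reverse complement. It stood in 3 of the 8 promoters and in 14.1% of all. The 3 promoters are shown because they are the ones that hold this form, with its matches in capitals, 5′ to 3′ on the strand of the gene, for Galntl5 (chr5:25181230-25181529, plus strand), Lelp1 (chr3:92142705-92143004, minus strand) and Cstl1 (chr2:148750111-148750410, plus strand).
Galntl5: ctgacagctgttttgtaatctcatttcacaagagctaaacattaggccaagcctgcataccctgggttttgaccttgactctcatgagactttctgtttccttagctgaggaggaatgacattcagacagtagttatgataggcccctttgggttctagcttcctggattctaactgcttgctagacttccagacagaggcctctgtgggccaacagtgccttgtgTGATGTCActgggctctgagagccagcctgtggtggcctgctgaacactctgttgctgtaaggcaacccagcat
Lelp1: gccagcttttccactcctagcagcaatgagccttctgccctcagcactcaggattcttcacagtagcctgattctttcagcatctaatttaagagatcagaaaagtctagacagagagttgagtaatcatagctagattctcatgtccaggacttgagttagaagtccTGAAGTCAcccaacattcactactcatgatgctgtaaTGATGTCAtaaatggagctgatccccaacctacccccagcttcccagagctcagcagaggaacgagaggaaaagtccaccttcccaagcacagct
Cstl1: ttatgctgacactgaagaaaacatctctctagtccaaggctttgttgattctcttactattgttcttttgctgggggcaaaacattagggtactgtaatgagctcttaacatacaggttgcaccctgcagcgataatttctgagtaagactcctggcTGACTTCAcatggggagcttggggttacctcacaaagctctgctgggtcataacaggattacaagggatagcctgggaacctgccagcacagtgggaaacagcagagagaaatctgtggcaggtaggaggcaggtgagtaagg
The first base of the match lay at -24 from the start site in Galntl5, at -82 and -45 in Lelp1 and at -93 in Cstl1. These 3 genes differed in RNA: it was close to the WT level for Galntl5 and at 12.7% of it for Cstl1. A match describes the letters in this window and shows no binding. The median GC content of the 8 promoters was 47.0%, against 52.7% over all.

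Across the 10 genes, the footprint level in Miwi-null testes was 0.589% to 16.2% of that in WT testes. The RNA level was 12.7% to 87.4% of WT for 9 of them and 227% for Ppef1. Both Miwi-null libraries lay below both WT libraries for 10 of 10 genes in footprints, a pattern shown by 29.3% of the 16051 genes tested, and for 9 of 10 in RNA, a pattern shown by 43.1%. The median log2 change, Miwi-null over WT, was -5.95 in footprints (range -7.40 to -2.62), -1.97 in RNA (range -2.98 to 1.19) and -3.81 in TE (range -5.59 to -3.16). Over all genes tested the medians were -0.0046 in footprints, -0.074 in RNA and 0.043 in TE. Because the genes were chosen on these contrasts, their changes are given as a description without a test.

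**Figure D1:**
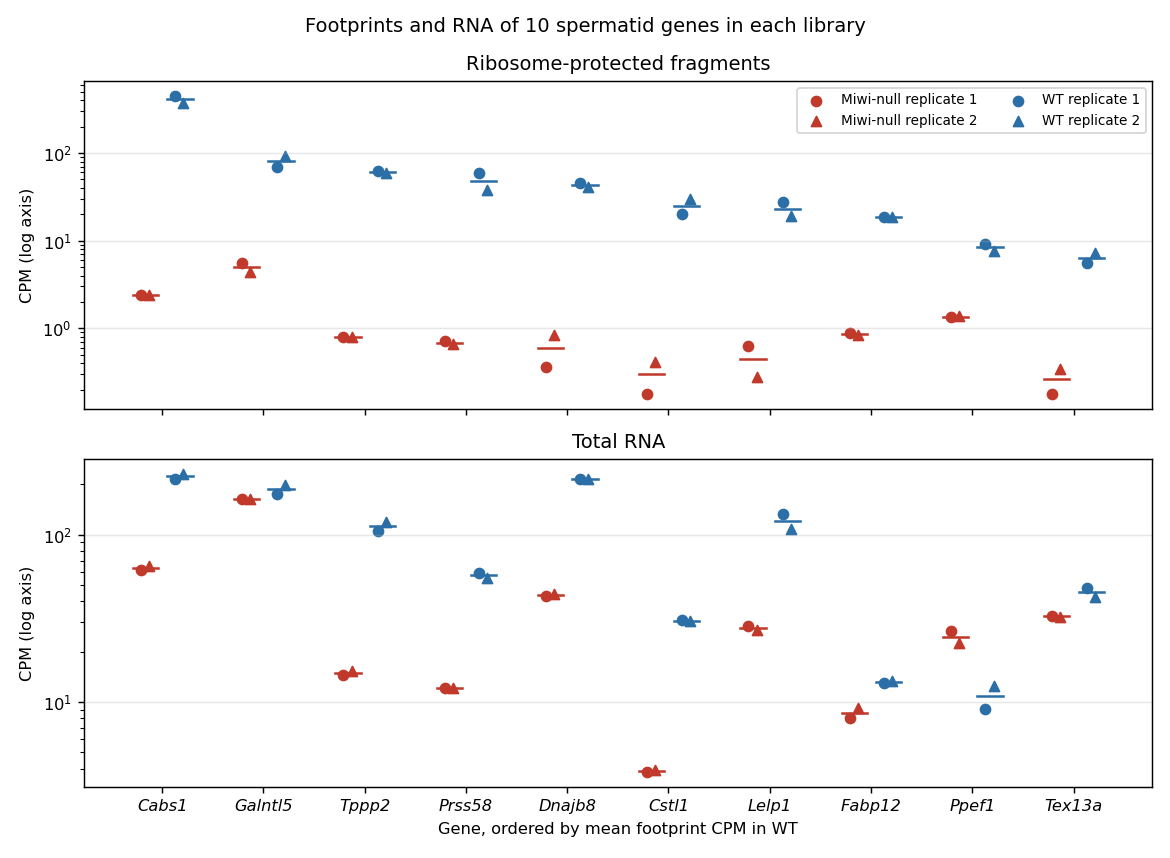
Level of each of the 10 genes in every library, in CPM on a log10 axis, with footprints in the upper panel and total RNA in the lower; points are single libraries and short lines their means, with Miwi-null (red) left of WT (blue). Cabs1 footprints sit at 2.41 and 2.43 CPM in Miwi-null testes and at 448 and 373 CPM in WT testes, and Ppef1 is the gene whose RNA is higher in Miwi-null testes.

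Among proteins of calcium signalling and the cytoskeleton, Cabs1 had the deepest footprint loss of the 10. It encodes a calcium-binding protein of elongating spermatids (ENSMUSG00000007907.4, chr5:87979451-87981541, build GRCm38.p6 here and below, coding length 1173 nucleotides). Cabs1 footprints stood at 2.41 and 2.43 CPM in Miwi-null testes, against 448 and 373 CPM in WT testes. Cabs1 RNA stood at 61.7 and 64.6 CPM in Miwi-null testes, against 214 and 230 CPM in WT testes. Both assays were low in both Miwi-null libraries with no overlap, and the footprint gap was by far the wider. Mean footprints were 2.42 ± 0.0109 CPM in Miwi-null testes and 410 ± 53.2 CPM in WT testes (SD, n = 2 each), a log2 change of -7.40 ± 0.15 (SE). The RNA change was -1.82 ± 0.11, so the TE change was -5.59 ± 0.18. Here and below, the SE of a log2 change is that change divided by the square root of the edgeR test's F statistic. For genes with few Miwi-null footprint fragments it can be smaller than the counting error alone. In the authors' deposited table the Cabs1 TE was 0.0438 and 0.0446 in Miwi-null testes, against 2.68 and 1.97 in WT testes.

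Tppp2 belongs to the tubulin polymerization-promoting proteins and is found in the mouse sperm tail (ENSMUSG00000008813.13, chr14:51918430-51920704, 510 nucleotides). Tppp2 footprints stood at 0.804 and 0.797 CPM in Miwi-null testes, against 61.7 and 58.4 CPM in WT testes. Tppp2 RNA stood at 14.5 and 15.4 CPM in Miwi-null testes, against 105 and 119 CPM in WT testes. Its libraries were tight within each genotype and far apart between them in both assays. The Miwi-null footprint values rest on 9 and 23 fragments. For the first, the exact 95% Poisson interval is 0.368 to 1.53 CPM (counting error only). The log2 change was -6.22 ± 0.15 in footprints, -2.90 ± 0.11 in RNA and -3.32 ± 0.20 in TE. Tppp2 and Cstl1 had the lowest RNA of the 10 genes relative to WT, and the smallest TE changes.

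Ppef1, a serine/threonine protein phosphatase with calcium-binding EF hands (ENSMUSG00000062168.12, chrX:160622419-160751290, 1950 nucleotides), ran the other way in RNA. Ppef1 RNA stood at 26.7 and 22.5 CPM in Miwi-null testes, against 9.13 and 12.5 CPM in WT testes. Ppef1 footprints stood at 1.34 and 1.39 CPM in Miwi-null testes, against 9.24 and 7.55 CPM in WT testes. So both Miwi-null libraries were high in RNA and low in footprints, without overlap in either assay. Fitted log2 changes were 1.19 ± 0.18 in RNA, -2.62 ± 0.24 in footprints and -3.80 ± 0.30 in TE. Its footprint loss was the smallest of the 10, while its TE change was at the middle of the set.

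Among the enzymes and the inhibitor, Galntl5 kept most of its RNA, at 87.4% of the WT mean. It is related to the polypeptide GalNAc-transferases and is needed for fertile sperm in mice (ENSMUSG00000028938.9, chr5:25181440-25220297, 1293 nucleotides). Galntl5 RNA stood at 164 and 163 CPM in Miwi-null testes, against 175 and 199 CPM in WT testes. Galntl5 footprints stood at 5.63 and 4.4 CPM in Miwi-null testes, against 69.7 and 93.4 CPM in WT testes. The RNA libraries of the genotypes lay close together, although both Miwi-null values were the lower ones, while the footprint libraries were far apart. On the log2 scale the change was -0.19 ± 0.15 in RNA, -4.06 ± 0.19 in footprints and -3.86 ± 0.24 in TE. In the authors' deposited table its TE was 0.0385 and 0.0320 in Miwi-null testes, against 0.509 and 0.569 in WT testes.

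Prss58 encodes a serine protease of the trypsin family (ENSMUSG00000051936.4, chr6:40895262-40900387, 723 nucleotides). Prss58 footprints stood at 0.715 and 0.659 CPM in Miwi-null testes, against 58.6 and 37.6 CPM in WT testes. Prss58 RNA stood at 12.2 and 12.1 CPM in Miwi-null testes, against 59.2 and 55.0 CPM in WT testes. The WT footprint libraries differed more between themselves than the Miwi-null ones, and still lay far above them. The Miwi-null footprint values rest on 8 and 19 fragments. The log2 change was -6.14 ± 0.28 in footprints, -2.23 ± 0.20 in RNA and -3.91 ± 0.36 in TE.

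Cstl1 is a cystatin-like gene, and cystatins inhibit cysteine proteases (ENSMUSG00000055177.15, chr2:148750361-148755434, 420 nucleotides). Cstl1 footprints stood at 0.179 and 0.416 CPM in Miwi-null testes, against 20.3 and 29.5 CPM in WT testes. Cstl1 RNA stood at 3.83 and 3.92 CPM in Miwi-null testes, against 30.7 and 30.5 CPM in WT testes. Both assays were low in both Miwi-null libraries. The first Miwi-null footprint value rests on 2 fragments, for which the exact 95% Poisson interval is 0.242 to 7.22 fragments (counting error only). This gave log2 changes of -6.14 ± 0.31 in footprints, -2.98 ± 0.23 in RNA and -3.16 ± 0.43 in TE. Without the second Miwi-null RPF library the footprint change was -7.04 and the TE change -4.13.

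Dnajb8, a DNAJ co-chaperone that partners HSP70 (ENSMUSG00000048206.6, chr6:88222268-88223256, 681 nucleotides), had RNA at 20.3% of the WT mean. Dnajb8 footprints stood at 0.357 and 0.832 CPM in Miwi-null testes, against 45.9 and 41.5 CPM in WT testes. Dnajb8 RNA stood at 43.0 and 44.4 CPM in Miwi-null testes, against 216 and 215 CPM in WT testes. The Miwi-null footprint libraries held 4 and 24 fragments, and neither came near the WT values. The fitted log2 change was -5.98 ± 0.21 in footprints, -2.30 ± 0.14 in RNA and -3.68 ± 0.26 in TE. Without the second Miwi-null RPF library the footprint change was -6.89 and the TE change -4.65.

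Fabp12 encodes a fatty acid binding protein (ENSMUSG00000027530.15, chr3:10244209-10301515, 396 nucleotides). Fabp12 footprints stood at 0.893 and 0.832 CPM in Miwi-null testes, against 18.4 and 18.6 CPM in WT testes. Fabp12 RNA stood at 8.04 and 9.15 CPM in Miwi-null testes, against 13 and 13.3 CPM in WT testes. The RNA groups lay near each other without overlap, and the footprint groups were far apart. The log2 change was -4.43 ± 0.17 in footprints, -0.62 ± 0.13 in RNA and -3.81 ± 0.22 in TE.

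Tex13a, an X-linked germ cell gene (ENSMUSG00000071686.2, chrX:138208158-138209580, 1131 nucleotides), rested on few footprint fragments. Tex13a footprints stood at 0.179 and 0.347 CPM in Miwi-null testes, against 5.50 and 7.21 CPM in WT testes. Tex13a RNA stood at 32.9 and 32.1 CPM in Miwi-null testes, against 48.2 and 42.4 CPM in WT testes. The Miwi-null footprint values rest on 2 and 10 fragments, against 162 and 127 in WT testes, and the genotypes did not overlap in either assay. Fitted log2 changes were -4.37 ± 0.28 in footprints, -0.48 ± 0.15 in RNA and -3.89 ± 0.34 in TE. Without the second Miwi-null RPF library the footprint change was -5.06 and the TE change -4.64.

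Lelp1 encodes a small proline-rich protein named for its likeness to late cornified envelope proteins of skin (ENSMUSG00000027927.5, chr3:92134994-92142754, 360 nucleotides). Lelp1 footprints stood at 0.625 and 0.277 CPM in Miwi-null testes, against 27.6 and 18.9 CPM in WT testes. Lelp1 RNA stood at 28.5 and 27.0 CPM in Miwi-null testes, against 133 and 108 CPM in WT testes. Both assays were low in both Miwi-null libraries, whose footprints amounted to 7 and 8 fragments. The fitted log2 change was -5.91 ± 0.34 in footprints, -2.12 ± 0.20 in RNA and -3.80 ± 0.42 in TE. Without the second Miwi-null RPF library the footprint change was -5.19 and the TE change -3.14.

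The 10 genes differed more in RNA change than in TE change, and each span leaned on 1 gene. The RNA changes spanned 4.17 log2 units, or 2.78 without Ppef1, and the footprint changes 4.78. The TE changes spanned 2.43 units with Cabs1 and 0.752 units over the other 9 genes, from -3.91 in Prss58 to -3.16 in Cstl1. The TE change is the footprint change less the RNA change, so a like TE change makes the footprint order largely follow the RNA order. Over those 9 genes the footprint order ran from Ppef1, whose RNA was higher in Miwi-null testes, through Galntl5, Tex13a and Fabp12 with modest RNA changes. At its far end stood Cstl1 (-6.14), Prss58 (-6.14) and Tppp2 (-6.22). A narrow range of TE is in part what the choice of genes asked for, so it is given as a description.

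**Figure D2:**
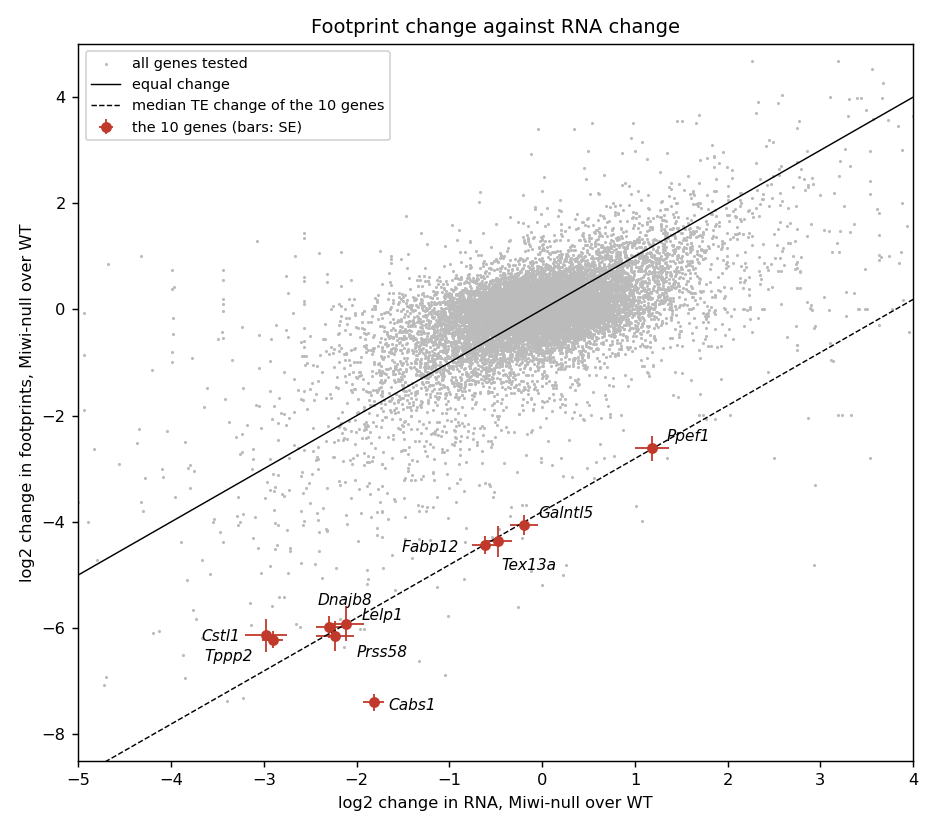
Log2 change in footprints against log2 change in RNA, Miwi-null over WT, for the genes tested (grey; 48 lie outside the axes) and the 10 genes (red, bars are SE). The solid line marks equal change and the dashed line the median TE change of the 10 genes, -3.81; 9 of the 10 lie along the dashed line and Cabs1 lies below it.

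In the fit over all genes (edgeR's quasi-likelihood test, calls at an adjusted p under 0.05), all 10 genes were called lower in footprints, where 25.4% of the genes tested were called and 13.3% were lower. All 10 were also called lower in TE, where 14.9% of genes were called and 7.56% were lower. In RNA, where 37.3% of genes were called, 8 of the 10 were called lower, as were 20.8% of all, and Ppef1 was called higher, as were 16.5% of all. Galntl5 was not called in RNA (adjusted p = 0.352 by edgeR). Since the choice of genes used these contrasts, nothing is read from the counts. The RNA call of Tex13a rested on the scaling and on single libraries (adjusted p = 0.0751 by edgeR without TMM scaling, and 0.170 without the second Miwi-null RNA library), and was lost with DESeq2 too (adjusted p = 0.0914), in 10 settings in all. That of Fabp12 was lost without the first Miwi-null RNA library (edgeR adjusted p = 0.0829) and with DESeq2 (adjusted p = 0.0502).

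**Figure D3:**
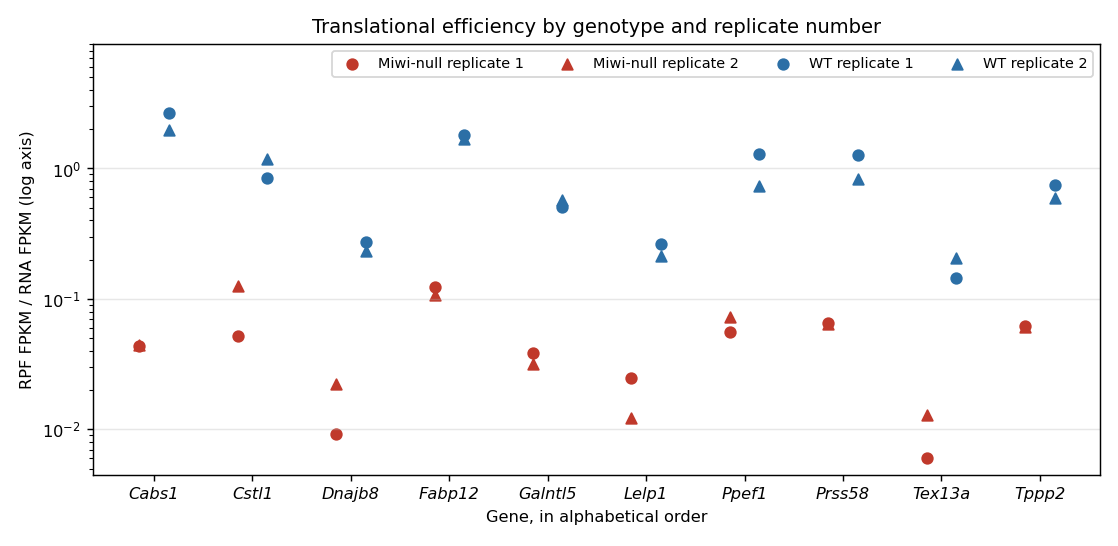
Ratio of RPF FPKM to RNA FPKM in the authors' deposited table, on a log10 axis, for each of the 10 genes in the replicates of each genotype (Miwi-null red, left; WT blue, right; circles and triangles are replicate numbers). Within every gene both Miwi-null ratios lie below both WT ratios; Cabs1 has 0.0438 and 0.0446 in Miwi-null testes against 2.68 and 1.97 in WT testes.

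Taken by replicate number, which names libraries without pairing them, the TE change of Dnajb8 was -4.68 and -3.36, that of Ppef1 -4.33 and -3.29, and that of Lelp1 -3.24 and -4.09. That of Cabs1, with 27 and 70 fragments in the Miwi-null libraries, was -5.74 and -5.43. In the authors' deposited table the log2 TE change with replicates pooled ran from -5.73 in Cabs1 to -3.27 in Cstl1, and all 10 genes had a change of the same sign. For Cstl1 the authors' tables by replicate give a TE per genotype but no change between genotypes, with the mark Unknown, so its change there comes from the pooled table alone.

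Scaled by coding length, Cabs1 had the highest footprint level of the 10 genes in WT testes and Ppef1 the lowest. In the authors' FPKM (fragments scaled by coding length and library total), Cabs1 footprints were 1.90 and 2.04 in Miwi-null testes, against 388 and 304 in WT testes. Ppef1 footprints were 0.637 and 0.701 FPKM in Miwi-null testes, against 4.81 and 3.70 FPKM in WT testes. Ranked by mean CPM per kilobase among all genes tested, the 10 genes' footprints lay between the 4.87th percentile (Tex13a) and the 30.9th (Galntl5) in Miwi-null testes, and between the 31.4th (Ppef1) and the 96.7th (Cabs1) in WT testes. The genes are short: their coding lengths ran from 360 to 1950 nucleotides with a median of 702, against a median of 1359 over all genes tested.

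The fragments of the other transcripts of these genes moved in the same direction, although transcripts of a gene share fragments and are no separate evidence. Footprints were lower in both Miwi-null libraries for 20 of 20 transcripts, and RNA for 17 of 20. Fabp12 has 4 transcripts of 396 nucleotides with identical footprint counts, 10 and 24 in Miwi-null testes and 543 and 328 in WT testes, and unlike RNA counts. The same held widely: of 2797 sets of transcripts of a gene with equal length and equal footprint counts, 2567 (91.8%) had unlike RNA counts. RNA was therefore not counted over the coding window in the way footprints were, and a TE level cannot be set against that of another gene. The short second transcript of Dnajb8, annotated as a target of nonsense-mediated decay, had 0 and 3 footprints in Miwi-null testes, against 335 and 194 in WT testes.

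Relatives of the 10 genes were counted to see whether gene families moved as a whole. Of 60 relatives tested, 14 were called lower and 1 higher in TE, where 7.56% and 7.33% of all genes were, with a median TE change of -0.25. In footprints 20 were called lower, against 13.3% of all genes, and 5 higher, against 12%. In RNA 21 were called lower, against 20.8% of all genes, and 11 higher, against 16.5%, so the higher counts lay near or below the share over all genes. Only 4 of the 60 had a TE change at or below -3.16, that of Cstl1: Tex13c3, Tex13c1, Smcp and Prr9. Prr9 had 0 footprints in both Miwi-null libraries and at most 0.113 CPM in a WT library, so its change is not resolved at this depth. It is still counted among the 14 called lower in TE. Smcp, also among the 14, was listed with Lelp1 by its position on the chromosome. The families differed as follows.

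The TEX13 family held the closest likeness. Tex13c3 footprints stood at 0.447 and 0.451 CPM in Miwi-null testes, against 8.90 and 8.91 CPM in WT testes, a TE change of -3.75 ± 0.28 (edgeR adjusted p = 0.000211). Tex13c1 footprints stood at 2.32 and 2.25 CPM in Miwi-null testes, against 29.3 and 30.8 CPM in WT testes, a TE change of -3.38 ± 0.18 (edgeR adjusted p = 4.93e-05). The other two did not share this: Tex13b had a TE change of 0.03 ± 0.27 and was not called, and Tex13c2 was higher in RNA (1.78 ± 0.21) and in footprints (2.15 ± 0.19; edgeR adjusted p = 8.37e-05). How TEX13 copies of like sequence share fragments is not given in the sources used here, so their split is uncertain.

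Of 16 serine protease relatives of Prss58, 6 were called lower in TE and 0 higher, against 7.56% and 7.33% of all genes. Prss37, which lies 376 kb from Prss58 on chromosome 6 and is needed for male fertility in mice, had footprints of 27.9 and 26.4 CPM in Miwi-null testes, against 375 and 376 CPM in WT testes. Its log2 change was -3.79 ± 0.10 in footprints and -2.47 ± 0.13 in TE (edgeR adjusted p = 4.94e-05). Prss55 had a TE change of -2.29 ± 0.30 and Prss52 one of -2.08 ± 0.28 (edgeR adjusted p = 0.00256 and 0.00278). None of the 16 reached the change of Prss58. Prss51 lost RNA and footprints alike, at -4.90 ± 0.23 and -3.99 ± 0.25, and its TE was not called (edgeR adjusted p = 0.175).

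Of 14 GalNAc-transferases, the enzymes that start mucin-type O-glycosylation, 1 was called lower in TE, about the 7.56% of all genes. That was Galnt3, at -0.90 ± 0.12 (edgeR adjusted p = 0.00278). Galnt11, whose gene lies 2.58 kb from Galntl5, had footprints of 6.07 and 5.51 CPM in Miwi-null testes, against 6.93 and 9.13 CPM in WT testes, and was not called in either assay or in TE. Of 12 DNAJB co-chaperones 1 was called lower in TE, again near 7.56%, the testis gene Dnajb7, at -2.31 ± 0.29 (edgeR adjusted p = 0.00235).

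Of 5 cystatins, 4 were called lower in footprints like Cstl1, against 13.3% of all genes, and 2 in TE, against 7.56%. The footprint call of Cst9, at -1.07, was lost without the first WT RPF library (-0.57, edgeR adjusted p = 0.0904) and in 5 other settings, and that of Cst12 with footprints fitted alone (edgeR adjusted p = 0.0634). Cst13 had a TE change of -1.94 ± 0.37 (edgeR adjusted p = 0.0123) and Cst8 one of -1.02 ± 0.20 (edgeR adjusted p = 0.0147). Both TE calls were lost when an RNA library was left out, at adjusted p = 0.0750 for Cst13 and 0.0899 for Cst8 without the first WT RNA library (edgeR). Smcp, a mitochondrial capsule protein of the sperm midpiece that lies 441 kb from Lelp1, had a TE change of -3.37 ± 0.54 (edgeR adjusted p = 0.00658).

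The fatty acid binding proteins did not share the loss. Fabp9, a sperm head protein whose gene lies 46.9 kb from Fabp12, had footprints of 1443 and 926 CPM in Miwi-null testes, against 704 and 1182 CPM in WT testes. Those groups overlap, and the log2 footprint change of 0.33 ± 0.26 was not called. Its TE change of 1.41 ± 0.37 was called higher (edgeR adjusted p = 0.0381). That call was lost without filtering and with the replicate number as a block (edgeR adjusted p = 0.0843 and 0.0737). It was also lost with any RNA library left out (TE change 1.30 to 1.52) and without the first Miwi-null RPF library (1.06). Fabp3 was higher in both assays, at 1.30 ± 0.08 in footprints and 1.02 ± 0.08 in RNA. Tppp, Tppp3 and Ppef2 were not called in TE.

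**Figure D4:**
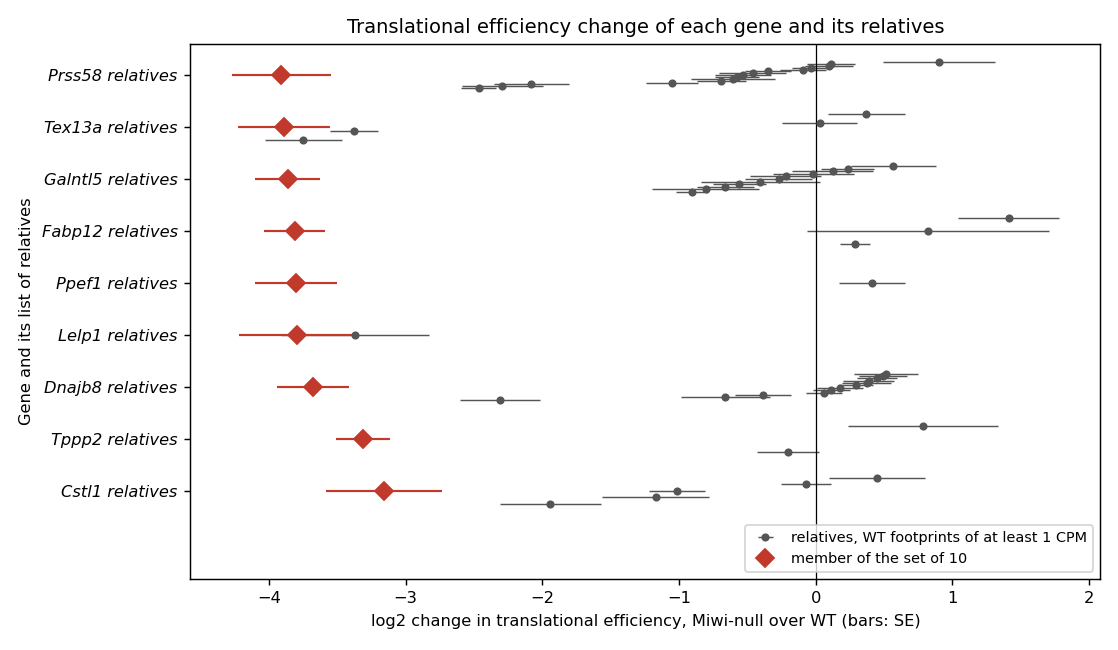
Log2 change in translational efficiency, Miwi-null over WT, of 9 of the 10 genes (red diamonds) and of those relatives with at least 1 CPM of footprints in WT testes (grey points; bars are SE); Lelp1's row holds Smcp, grouped with it by position. Most relatives lie near 0, and Tex13c3, Tex13c1 and Smcp lie near the diamonds.

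Set against wider lists, genes listed as late spermatid shared the lower footprints. That list of 39 was drawn up for nuclear condensation, tail and midpiece proteins. It also holds genes of other kinds, such as Pgk2, Ldhc, Hspa1l, Calr3 and Meig1. Of the 39, 32 were called lower and 2 higher in footprints (median -2.54), where 13.3% and 12% of all genes were. In RNA 32 were called lower and 0 higher (median -1.13), where 20.8% and 16.5% of all genes were. In TE 19 were called lower and 5 higher (median -0.71), where 7.56% and 7.33% of all genes were, and 4 reached the TE change of Cstl1. All 8 elongating spermatid markers above are among the 39, and Smcp is in this list as well as among the relatives. Akap4, a fibrous sheath protein, had footprints of 2.95 and 3.40 CPM in Miwi-null testes, against 130 and 113 CPM in WT testes, with a TE change of -4.10 ± 0.16 (edgeR adjusted p = 1.64e-05). Spa17, a sperm protein, had a TE change of 1.54 ± 0.15 (edgeR adjusted p = 0.000698), with an RNA change of -2.39 ± 0.11 and a footprint change of -0.85 ± 0.11.

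Of 46 round spermatid genes, 28 were called lower and 2 higher in footprints (median -0.60), where 13.3% and 12% of all genes were. In RNA 21 were called lower and 5 higher (median -0.21), where 20.8% and 16.5% of all genes were, and in TE 15 lower and 1 higher (median -0.47), where 7.56% and 7.33% were. In TE 2 reached the change of Cstl1. Of the round spermatid markers above, Sun5 is in the late spermatid list and the rest are among these 46. The histone genes Hils1 and H1fnt are counted among the 46 too. Crisp2, an acrosomal and tail protein, had footprints of 8.84 and 10.7 CPM in Miwi-null testes, against 81.3 and 52.5 CPM in WT testes. Its RNA was 790 and 791 CPM in Miwi-null testes, against 434 and 491 CPM in WT testes, so that, like Ppef1, it had more RNA and fewer footprints. Its TE change was -3.53 ± 0.28 (edgeR adjusted p = 0.000258). With any 1 RNA library left out, its log2 RNA change was 0.685 to 0.860 and was not called, while the RNA call of Ppef1 held. Fhl5, the coactivator of CREM in testis, had footprints of 6.52 and 7.80 CPM in Miwi-null testes, against 169 and 132 CPM in WT testes, and a TE change of -3.53 ± 0.21 (edgeR adjusted p = 7.81e-05). These lists were drawn up with earlier results of these data known.

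The choice of genes had no numeric limit, and other genes showed as large a change. The search kept genes with a mean of at least 10 CPM of footprints in WT testes. Ppef1 (8.39 CPM) and Tex13a (6.35 CPM) lay below that floor themselves, so other genes at their level went uncounted. Above the floor, 146 others had a footprint change at or below that of Ppef1 (-2.62). Of those, 21 also had a TE change at or below that of Cstl1 (-3.16). The lowest TE changes among them were -5.35 ± 0.26 in 1700074P13Rik, -5.07 ± 0.25 in 4933400A11Rik and -4.77 ± 0.38 in 1700009N14Rik. Around the TE change of Cstl1, 4921530L21Rik at -3.27 and 1700084M14Rik at -3.21 lay just inside, and Fam71f2 at -3.15 and Gm136 at -3.09 just outside.

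The other genes with a profile most like the mean profile of the 10 were ranked by the root mean square difference of log2 CPM over the 8 libraries, each gene centred on its own mean, among 9843 candidates with at least 10 CPM of footprints in WT testes. The nearest was Oaz3, the antizyme of spermatids, at a difference of 0.307 log2 units, followed by Tmem269 at 0.402, the outer dense fibre gene Odf1 at 0.437, the testis kinase Tssk3 at 0.551 and the actin-related Actrt1 at 0.580. Oaz3 footprints stood at 5.36 and 7.56 CPM in Miwi-null testes, against 271 and 207 CPM in WT testes, and its TE change was -3.28 ± 0.24. Odf1 footprints stood at 7.86 and 6.17 CPM in Miwi-null testes, against 404 and 485 CPM in WT testes, and its TE change was -4.10 ± 0.19. The 10 genes themselves lay 0.530 (Prss58) to 1.37 (Ppef1) from their own mean profile, so Ppef1 was the least like the rest. Ppef1 and Tex13a lay below the footprint floor set for the candidates. Oaz3 and Odf1 are also elongating spermatid markers counted above.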

How the data were processed

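Total RNA and RPF of 8 testis libraries (2 per genotype and assay, grouped by sample title) were analysed. The authors deposited whole-number fragment counts per transcript without normalization, and FPKM values computed from those counts, per the file headers; 84.7% of the deposited lengths are multiples of 3, so they are coding lengths. The authors' TE is a deposited ratio of RPF FPKM to RNA FPKM, and the authors' deposited log2 change compares it between genotypes. Tools listed without a role in the submitters' processing notes are STAR 2.5.0a, cutadapt 2.5 and Bowtie 1.2.2, and the build there is GRCm38; how fragments were assigned to transcripts, and whether strand was used, is not stated there.

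Counts of the top transcript per gene were filtered with filterByExpr (minimum count 10, minimum total 15; 16051 genes, all 10 members included), TMM-scaled and fitted with edgeR 4.0.16 in R 4.3.3 (quasi-likelihood, 4 groups, 4 residual degrees of freedom), with Benjamini-Hochberg adjustment over all genes and TE as the interaction of genotype and assay. The script was tested on simulated data. DESeq2 1.42.0, other scalings, no filter, summed transcripts, separate fits, replicate blocks and leaving out each library were alternatives. With 2 libraries a group, precision rests on a spread shared over groups. The SE was worked out from the log2 change and the F statistic of the test, so it is no separate estimate of error. It can understate the error where fragments are few. The members and all lists were chosen with earlier results of these data known. Named genes are the members, the extremes of each list, the edge genes and the nearest profiles; some family members were added by position or family after their values were seen. Gene coordinates are those of the RefSeq table, build GRCm38.p6.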

Additional observations from a re-analysis of the deposited data

How the results depend on the processing

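The genes were chosen on their RNA, footprint and TE changes in these same libraries, so nothing is read from their calls here. All 10 genes were called lower in footprints and in TE under every alternative with 2 libraries a group and a value for them. Their median changes moved little: without TMM scaling the RNA median was -1.87 and the TE median -3.94, with TMM within each assay the RNA median was -1.90, and leaving out a library gave -2.02 to -1.90 in RNA, -5.95 to -5.62 in footprints and -3.88 to -3.64 in TE. Leaving out a library gave 7 to 9 of the 10 called in RNA, 10 to 10 in footprints and 10 to 10 in TE. Over all genes, leaving out a library gave 3244 to 7095 calls in RNA, 2939 to 5170 in footprints and 620 to 3636 in TE, against 5984, 4073 and 2390. For the late spermatid list these ranges were 29 to 33, 32 to 35 and 16 to 26 calls, for the round spermatid list 19 to 31, 25 to 33 and 6 to 23, and for the relatives 18 to 35, 19 to 28 and 8 to 22. Fitting each assay alone gave 9041 RNA calls and 1983 footprint calls, and 18 footprint calls in the round spermatid list and 16 among the relatives. Without TMM scaling the share of RNA calls that were higher was 55.1%, against 44.1%, and that of TE calls 29.2%, against 49.2%, and the median TE change of all genes moved by -0.142; with TMM within each assay the TE share was 39.0%. With the replicate number as a block TE calls were 1237 and those of the round spermatid list 8, RNA calls 5022 and footprint calls 3061. No label ties the numbers to shared animals or days, and deviations of same-numbered Miwi-null and WT libraries correlated at -0.799 in footprints and -0.0144 in RNA across 10171 genes. A crossed pairing, chosen after seeing the data, gave 6774 RNA, 5011 footprint and 3316 TE calls, and 27 TE calls in the round spermatid list. The causes of these moves were not tested. The Miwi-null footprint values of Tex13a, Cstl1, Lelp1 and Dnajb8 rest on 2 to 24 fragments, and those 4 genes moved most when the second Miwi-null RPF library was left out. Those of Prss58 (8 and 19 fragments), Tppp2 (9 and 23) and Fabp12 (10 and 24) rest on similarly few.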
